A study of Homo sapiens with 12 samples.

Results

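The receptor tyrosine kinases outside the EGFR family were taken as 52 gene symbols, and every row of the sgRNA count table whose gene name matched a symbol exactly was used. Of the 52 receptors, 51 had rows, each with 6 sgRNAs, which made 306 of the 123411 entries in the table and 51 of its 20915 gene names. EPHB6 was not analysed here. The 51 genes form 17 groups by ligand and structure, from the HGF receptor MET to the lemur kinases.

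The counts come from a pooled CRISPR/Cas9 knockout screen with the GeCKO V2 lentiviral library in N87 and OE19, a pair of established cell lines labelled as gastric cancer, both with HER2 amplification. Both were transduced at a multiplicity of infection of 0.3, so that most cells carry a single sgRNA, in 2 separate infection replicates per line. Baseline cells were taken after 7 days of puromycin, vehicle cells after 14 days with DMSO, and lapatinib cells after 14 days with lapatinib, which blocks the kinases of EGFR and HER2, at 0.5 µM in N87 and 1 µM in OE19. This gives 6 conditions and 12 libraries. Because the doses differ, every comparison of the lapatinib effect between the lines includes the dose. The drug-free comparison between the lines uses no lapatinib library.

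Receptor tyrosine kinases span the plasma membrane once, bind a ligand outside the cell, pair up and phosphorylate tyrosines on each other. Adaptors such as GRB2, SHC1 and FRS2 dock on these tyrosines and pass the signal to the MAPK and PI3K pathways, which HER2 also uses. For that reason MET, IGF1R, FGFR2, AXL and EPHA2 are often discussed as bypass receptors that can keep a cell alive when HER2 is blocked. In a knockout screen, sgRNAs against a receptor that the treated cells need should become rarer with the drug, and sgRNAs against a receptor that holds the cells back should become more common. The count of an sgRNA follows the number of cells that carry it, and neither the receptor's expression nor the cutting at its locus was measured. The comparison of lapatinib with vehicle asked whether loss of any of these receptors changed survival under the drug, and that of vehicle with baseline whether the cells needed the receptor without it.

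Total counts ran from 13105805 to 33743599 per library, and the OE19 lapatinib libraries had the fewest, with 13105805 and 16378926. The members held 0.265% to 0.302% of the counts. The median counts of a member sgRNA lay between 67.5 (OE19 lapatinib replicate 1) and 270.5 (N87 baseline replicate 1). A PTK7 sgRNA, HGLibA_47675, had 0 counts in all 12 libraries, so PTK7 rests on 5 sgRNAs. The control guides, which target no gene, moved as well. With lapatinib, 52.3% of 1999 control entries passed the sgRNA test in N87 and 2.21% of 1994 in OE19. Values below are normalized counts per sgRNA, scaled by the median of ratios, or log2 fold changes fitted by edgeR with TMM factors. A gene value is the median over its sgRNAs, with the SD over sgRNAs. The sgRNAs of a gene share its target and are not replicates of a condition. Averages per sgRNA rose with lapatinib for the median member, and the same average over all genes is not given here. The median member averaged 189 and 191 with vehicle and 304 and 265 after lapatinib in N87, and 191 and 183 against 211 and 201 in OE19. An average of a receptor is to be read against these. The N87 rise is not read as a trait of the members, because their share of all counts changed little. That share was 0.274% and 0.277% in the N87 vehicle libraries and 0.281% and 0.284% in the N87 lapatinib libraries. In OE19 the share went from 0.277% in each vehicle library to 0.302% and 0.291% under lapatinib.

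With lapatinib, the rank test called none of the 51 receptors enriched or depleted in either line. That test called at most 0.0957% of all genes in either direction. A gene was called when the ranks of its sgRNAs, combined by robust rank aggregation, gave an adjusted p under 0.05. In N87, 0 of 51 members were enriched, where 0.0% of all genes were, and 0 were depleted, where 0.0144% of all genes were. In OE19, 0 of 51 were enriched, against 0.0957% of all genes, and 0 were depleted, against 0.0%. At an unadjusted p under 0.05 from the same rank test there were 5 members toward enrichment and 3 toward depletion in N87, or 9.80% and 5.88%, against 5.08% and 5.18% of all genes. In OE19 there were 2 and 3, or 3.92% and 5.88%, against 5.47% and 5.37%. With p-values from DESeq2 in place of edgeR, 0 members were called in either direction in both lines. A different gene test was edgeR on the summed counts of the 6 sgRNAs. Its TMM factors were computed on the sums, so its log2 changes are not on the scale of the averages per sgRNA. In N87 it called 18 members higher and 16 lower, close to the 32.3% and 32.2% of all genes that it called. Among them EPHA4, EPHA10, AATK and LMTK3 were higher and EPHA2, TEK, IGF1R and FGFR2 lower. In OE19 it called 0 members, against 0.043% of all genes higher and 0.0% lower.

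Single sgRNAs did move, and in N87 they moved in both directions within 45 of the 51 members. Of 303 tested member sgRNAs, 97 were higher with lapatinib and 98 were lower (edgeR's quasi-likelihood test, adjusted p under 0.05), against 31.2% and 29.9% of all sgRNAs. The number lower was 60 without N87 vehicle replicate 1 and 53 without replicate 2. For these fits the shares of all sgRNAs are not given here. With all libraries, members had 64.4% of sgRNAs called, against 61.1% of all sgRNAs and 52.3% of control entries. All 51 receptors had at least 1 sgRNA called, and 45 had sgRNAs called higher and sgRNAs called lower. The shares of all genes with such calls are not given here, so these counts are not read as a trait of the members. EPHA4, EPHB2 and EPHB3 had calls only toward higher counts, and EPHA6, EPHB4 and INSRR only toward lower. The median over members was -0.25, against -0.09 over all genes, 22 medians were above 0 and 29 below, and these values depend on the scaling. With total counts only, the median over all genes was -0.61 and that over members -0.77, and with factors from the control guides they were -0.37 and -0.52. In OE19 the medians over all genes and members were -0.02 and 0.03, or -0.46 and -0.41 with total counts only and 0.10 and 0.15 with control guide factors. Medians above 0 numbered 8 of 51 in N87 and 4 in OE19 with total counts only, 14 and 36 with control guide factors, and 22 and 30 with TMM, so the sign of a small median given below depends on the scaling. Relative to all genes the members thus lay at -0.15 to -0.16 in N87 and at 0.05 in OE19 under each scaling. The SD over the sgRNAs of a member was 1.22 at the median. A member's median was larger in size than its own SD for EPHA2, TEK, EPHA4, EPHA10, EPHB3, EPHB4 and INSRR. For the other members, RET and RYK among them, the SD was larger.

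**Figure D1:**
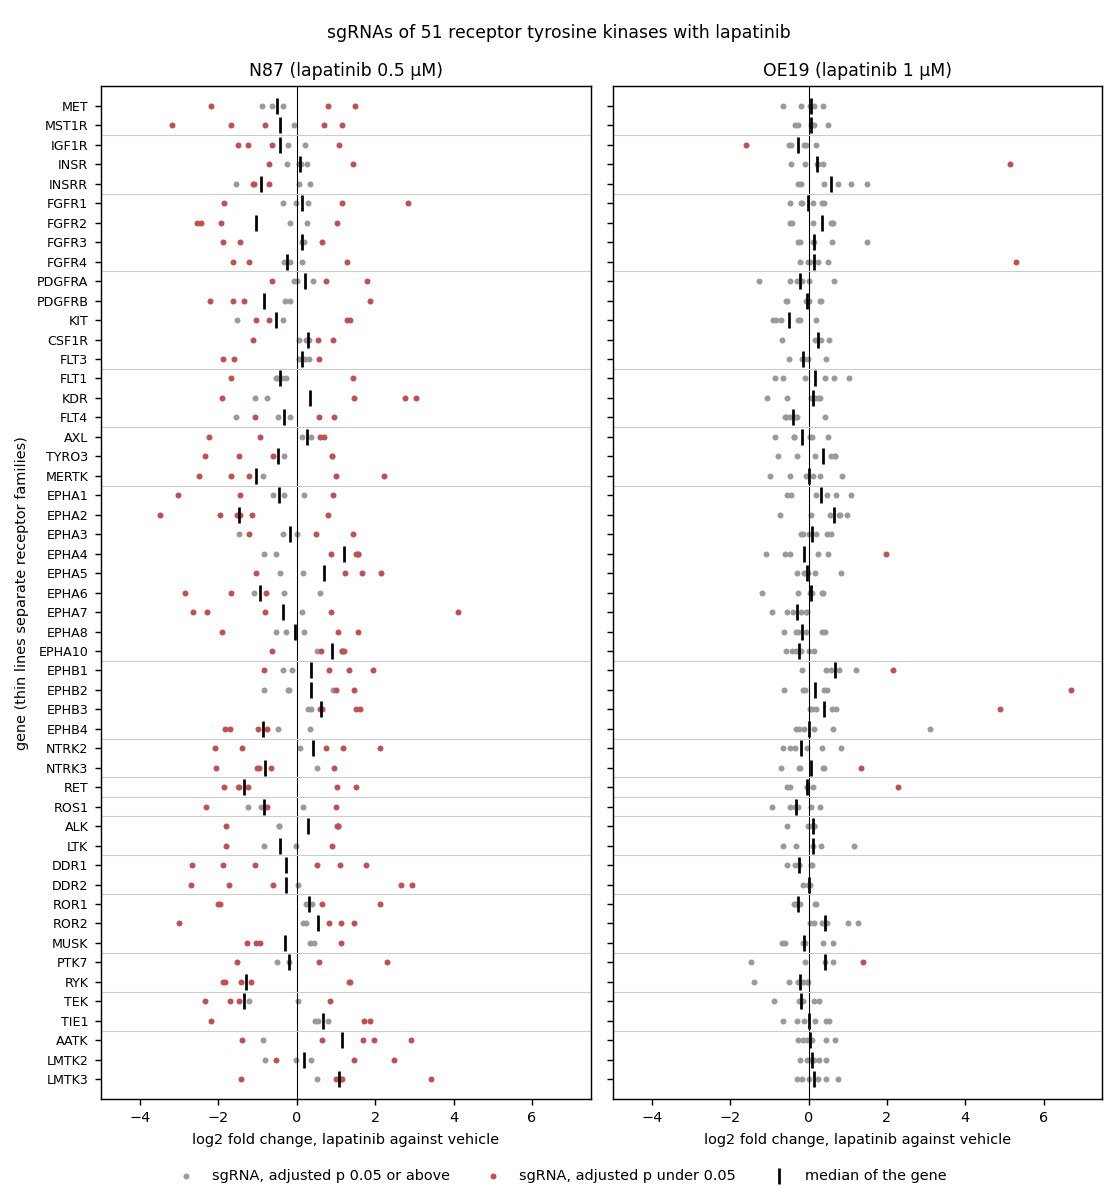
Log2 fold change of each tested sgRNA (points) with lapatinib against vehicle, for 51 receptors in N87 (left) and OE19 (right), with the median of each gene as a black bar and sgRNAs of adjusted p under 0.05 in red. In N87 red points lie on both sides of 0 in 45 genes, and in OE19 10 points are red, 9 of them to the right of 0.

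The replicates of N87 agreed on these sgRNA changes, while sgRNAs of the same gene did not. Across 303 member sgRNAs, the log2 ratio of lapatinib to vehicle in replicate 1 correlated with that in replicate 2 at r = 0.891, and 89.8% had the same sign. The value was 0.892 for control guides. The share of variance that sgRNAs of a gene had in common, as an intraclass correlation, was -0.003 for the members and 0.017 over all genes. In OE19 the replicates correlated at r = 0.630 with 60.7% of the same sign, and the intraclass correlation was 0.035, against 0.066 over all genes. Without drug the member sgRNAs hardly moved together, at r = -0.087 in N87 and 0.211 in OE19, where all gene-targeting sgRNAs had 0.268 and 0.329. The points of each correlation share libraries and depth, and sgRNAs are not independent replicates, so no p is given.

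**Figure D2:**
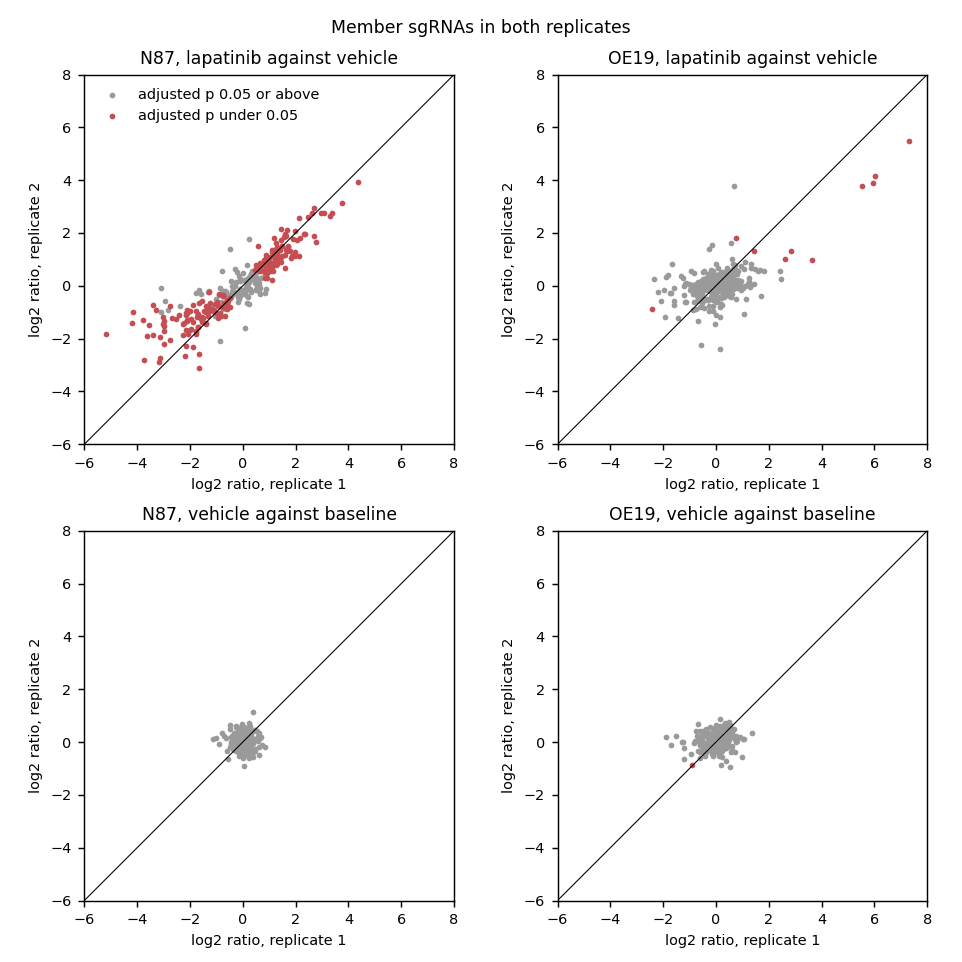
Log2 ratio of normalized counts (pseudocount of 1) of each member sgRNA in replicate 1 (horizontal) and replicate 2 (vertical), for lapatinib against vehicle (top) and vehicle against baseline (bottom) in N87 (left) and OE19 (right), with sgRNAs of adjusted p under 0.05 in red. The N87 lapatinib points follow the diagonal (r = 0.891), and the points without drug form a round cloud in N87 (r = -0.087).

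Among the bypass candidates, EPHA2, an ephrin-A receptor that is abundant in many carcinomas, stood lowest of all members in N87 and near the top in OE19. Its 6 sgRNAs averaged 145 and 149 normalized counts in the N87 baseline libraries, 172 and 177 after vehicle and 167 and 160 after lapatinib. The near-constant average with vehicle and lapatinib covers opposite moves. The sgRNA HGLibA_16291 had 449 and 387 counts with vehicle and 799 and 709 with lapatinib, while HGLibA_16289 had 96.5 and 118 with vehicle and 21.0 and 36.0 with lapatinib. HGLibB_16269, the sparsest, had 29.3 and 39.2 counts with vehicle and 1.24 and 4.80 with lapatinib. In N87, 5 of 6 EPHA2 sgRNAs were lower and 1 was higher, each past the sgRNA test, and the median was -1.49 ± 1.38 (SD over 6 sgRNAs). This put EPHA2 at rank 753 from the lowest of 20885 genes, yet its adjusted p for depletion was 1.00, in a library where 29.9% of all sgRNAs were lower. The replicate medians were -1.56 and -1.32. The summed counts, on their own scale, gave -0.55 with an adjusted p of 3.49e-04 (edgeR), in a test that called 32.2% of all genes lower. In OE19 its 6 sgRNAs averaged 166 and 167 counts with vehicle against 207 and 200 under lapatinib. There 5 of 6 were positive, none passed the sgRNA test, and the median was 0.66 ± 0.64 (SD over 6 sgRNAs). The difference between the lines was 2.11 ± 1.72 (SD over 6 sgRNAs) on the log2 scale, with an adjusted p of 0.923 in the interaction test. EPHA2 lies at 1:16450832-16482564 on GRCh37, minus strand.

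MET, the receptor of hepatocyte growth factor, averaged 185 and 189 counts with vehicle against 266 and 225 under lapatinib in N87. In OE19 it averaged 195 and 172 with vehicle and 181 and 170 with lapatinib, and the OE19 conditions overlapped. The MET medians were -0.50 ± 1.30 (SD over 6 sgRNAs) in N87, with 2 sgRNAs higher and 1 lower, and 0.06 ± 0.35 in OE19, with none called. MST1R, the receptor of macrophage-stimulating protein, had medians of -0.44 and 0.07. Its N87 value includes HGLibA_38548, which fell from 109 and 95.9 counts with vehicle to 11.1 and 12 with lapatinib (adjusted p = 9.91e-05), while the other 5 sgRNAs ran from -1.68 to 1.15.

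IGF1R, the receptor of insulin-like growth factors, had a negative median in both lines under each scaling. So did KIT, FLT4, EPHA7, EPHA8, ROS1, DDR1, TEK and RYK. Of the other bypass candidates, MET, FGFR2 and AXL were negative in both with total counts only, and AXL was with control guide factors. The IGF1R sgRNAs averaged 204 and 192 counts with vehicle against 194 and 172 under lapatinib in N87. In OE19 they averaged 213 and 183 with vehicle against 128 and 162 under lapatinib, and the 2 conditions did not overlap. The share of all genes without such overlap is not given here. The OE19 median was -0.28 ± 0.63 (SD over 6 sgRNAs), with 5 of 6 sgRNAs negative, an unadjusted p for depletion of 0.00374 from the rank test and an adjusted p of 0.619. The N87 median was -0.43 ± 0.96, with 3 sgRNAs lower, 1 higher and an adjusted p of 0.976 from the rank test. On the scale of the summed counts edgeR gave -0.57 (adjusted p = 1.65e-04). The sgRNA HGLibB_23763 was lower in both lines. It went from 383 and 250 counts to 69.8 and 135 in OE19 (log2 fold change -1.60, adjusted p = 0.0310) and from 218 and 194 to 65.6 and 85.3 in N87 (-1.50, adjusted p = 3.76e-04). It was the member sgRNA called lower in OE19, where 0.0795% of all sgRNAs were, and the other 5 IGF1R sgRNAs there ran from -0.50 to 0.19. IGF1R lies at 15:99191768-99507759 on GRCh37, plus strand. INSR, the insulin receptor, and INSRR, an orphan relative that senses alkaline pH, had medians of 0.07 and -0.91 in N87 and 0.22 and 0.57 in OE19.

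FGFR2, which is amplified in some gastric cancers, averaged 159 and 145 counts with vehicle against 124 and 173 under lapatinib in N87, with overlapping conditions. In OE19 it averaged 149 and 147 with vehicle against 203 and 150 under lapatinib. The medians were -1.05 ± 1.53 (SD over 6 sgRNAs) in N87, with 3 sgRNAs lower and 1 higher, and 0.35 ± 0.51 in OE19, with none called. The N87 summed counts of FGFR2, on their own scale, gave -0.48 (adjusted p = 0.0173 by edgeR). The medians of the other FGF receptors, FGFR1, FGFR3 and FGFR4, ran from -0.25 to 0.14 in N87 and from -0.03 to 0.14 in OE19. Over the 4 FGF receptors, 5 sgRNAs were higher and 8 lower of 24 in N87.

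AXL, the GAS6 receptor often named in resistance to kinase inhibitors, averaged 222 and 231 counts with vehicle against 311 and 259 under lapatinib in N87, and 240 and 221 with vehicle against 237 and 253 under lapatinib in OE19. Its medians were 0.25 ± 1.15 (SD over 6 sgRNAs) and -0.16 ± 0.47, both adjusted p 1.00, and in N87 2 sgRNAs were higher and 2 lower. Its relatives TYRO3 and MERTK had medians of -0.47 and -1.04 in N87 and 0.37 and 0.02 in OE19. None of the 18 sgRNAs of these TAM receptors was called in OE19.

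Among the receptors of PDGF, stem cell factor, CSF1 and FLT3 ligand, KIT was the lowest member in OE19. Its sgRNAs averaged 230 and 211 counts with vehicle against 174 and 181 under lapatinib in OE19, so the 2 conditions did not overlap. EPHA2 and INSRR, among others, did not overlap there either, with higher averages under lapatinib. The share of all genes without overlap is not given here. In OE19 the KIT median was -0.49 ± 0.43 (SD over 6 sgRNAs), 5 of 6 sgRNAs were negative, and none passed the sgRNA test. The rank test gave KIT an unadjusted p of 0.00353 and an adjusted p of 0.619 for depletion. In N87 KIT averaged 201 and 213 with vehicle and 253 and 249 with lapatinib, which lay above vehicle without overlap. Its N87 median was -0.53 ± 1.22, with 2 sgRNAs higher and 2 lower. KIT lies at 4:55523434-55606949 on GRCh37, between PDGFRA at 4:55095447-55164412 and KDR at 4:55944648-55991762. These neighbours had OE19 medians of -0.23 and 0.12 and N87 medians of 0.20 and 0.34. PDGFRB, CSF1R and FLT3 had medians of -0.83, 0.27 and 0.13 in N87 and -0.03, 0.25 and -0.13 in OE19.

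Of the VEGF and angiopoietin receptors, which act mainly in endothelium, TEK was among the 4 lowest members in N87. The TEK sgRNAs averaged 104 and 113 counts with vehicle and 95.5 and 96.9 with lapatinib, with a median of -1.35 ± 1.19 (SD over 6 sgRNAs), 3 sgRNAs lower, 1 higher and an adjusted p of 1.00. FLT4, the lymphatic VEGF receptor, was the second lowest member in OE19, at -0.39 ± 0.38, with 234 and 241 counts with vehicle and 243 and 215 with lapatinib, which overlap. KDR, the main VEGF receptor of blood vessels, was the sparsest member, with 89.5 and 87 counts per sgRNA in the N87 vehicle libraries against 189 and 191 for the median member. It had 3 sgRNAs higher in N87, the largest being HGLibB_25507, which rose from 44.8 and 57.6 to 476 and 399 counts (log2 fold change 3.04, adjusted p = 1.18e-07). The KDR median was 0.34 ± 2.12 in N87, and its unadjusted p for enrichment, 0.00308, became 0.695 after adjustment. FLT1 and TIE1 had medians of -0.44 and 0.66 in N87 and 0.16 and 0.02 in OE19.

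The ephrin receptors, which signal between touching cells, gave both ends of the N87 range. EPHA4 was the highest member, with 113 and 126 counts with vehicle and 304 and 280 with lapatinib. In N87, 4 of its 6 sgRNAs were higher and none lower, and the median was 1.19 ± 1.10 (SD over 6 sgRNAs), with an adjusted p for enrichment of 1.00. In OE19 the EPHA4 median was -0.12 ± 1.10. EPHA10, a receptor that lacks kinase activity, had 236 and 222 counts with vehicle, 436 and 393 with lapatinib and a median of 0.89 ± 0.70 in N87. EPHA7 held the largest single gain of N87. Its sgRNA HGLibA_16305 rose from 246 and 234 to 5120 and 3590 counts (adjusted p = 5.19e-08), while the other 5 ran from -2.65 to 0.88 and 3 of them were lower. EPHA1 held the third largest loss, HGLibA_16284, which fell from 118 and 143 to 12.4 and 20.4 counts (adjusted p = 5.32e-05). The 9 EPHA medians ran from -1.49 to 1.19 in N87 and from -0.30 to 0.66 in OE19. In OE19 all 6 EPHA7 sgRNAs were negative, with a median of -0.30 ± 0.34, and none was called.

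The 4 EPHB receptors had OE19 medians from 0.00 to 0.67, and EPHB1, at 0.67, and EPHA2, at 0.66, were the highest members there, in the opposite order (0.17 and 0.19) with total counts only. With that scaling, EPHB2, EPHB3 and EPHB4 were at -0.30, -0.07 and -0.42. EPHB1 averaged 256 and 274 counts with vehicle against 706 and 387 under lapatinib in OE19. Its median was 0.67 ± 0.79 (SD over 6 sgRNAs), 5 of 6 sgRNAs were positive, 1 passed, and the adjusted p for enrichment was 0.829. In N87 EPHB1 averaged 272 and 283 with vehicle and 664 and 554 with lapatinib, with a median of 0.35 ± 1.08. All 6 sgRNAs of EPHB3 were positive in both lines, with medians of 0.61 ± 0.58 in N87, where 4 were called, and 0.39 ± 1.88 in OE19, where 1 was. Members with all of 6 sgRNAs on the same side numbered 1 of 49 in N87 and 4 of 48 in OE19, or 2.04% and 8.33%, against 3.79% and 5.96% of all genes. The adjusted p of EPHB3 for enrichment was 1.00 in both lines.

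RET, the receptor of GDNF family ligands, was the second lowest member in N87. It averaged 306 and 297 counts with vehicle and 465 and 386 with lapatinib, so the average was higher where the median, -1.36 ± 1.46 (SD over 6 sgRNAs), was low. RET had 2 sgRNAs higher and 3 lower, with an adjusted p for depletion of 0.930, and its OE19 median was -0.04 ± 1.05. ROS1 was among the 4 lowest members in OE19, at -0.31 ± 0.42, and had a median of -0.84 in N87. The neurotrophin receptors NTRK2 and NTRK3 had medians of 0.42 and -0.80 in N87 and -0.20 and 0.07 in OE19. ALK and LTK had 0.28 and -0.43 in N87 and 0.11 and 0.10 in OE19. The collagen receptors DDR1 and DDR2 had -0.28 and -0.29 in N87, with 5 sgRNAs higher and 6 lower of 12, and -0.24 and 0.01 in OE19.

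RYK, a Wnt receptor with an inactive kinase domain, completed the 4 lowest members of N87. Its sgRNAs averaged 197 and 187 counts with vehicle and 323 and 312 with lapatinib, 2 were higher and 4 lower, and the median was -1.30 ± 1.53 (SD over 6 sgRNAs), with an adjusted p of 1.00. In OE19 all 6 RYK sgRNAs were negative, from -1.40 to -0.01, and none was called. PTK7, another receptor with an inactive kinase domain, had medians of -0.20 ± 1.43 in N87 and 0.42 ± 1.06 in OE19 over 5 sgRNAs. ROR1 and ROR2, receptors of Wnt5a, and MUSK, of the neuromuscular junction, had medians of 0.31, 0.53 and -0.31 in N87 and -0.26, 0.41 and -0.11 in OE19.

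The lemur kinases AATK, LMTK2 and LMTK3, which carry a receptor-like layout but act mainly inside the cell, had medians above 0 in N87, except that LMTK2 was at -0.35 with total counts only and -0.10 with control guide factors. AATK averaged 148 and 128 counts with vehicle and 348 and 294 with lapatinib, and LMTK3 averaged 156 and 170 with vehicle and 552 and 420 with lapatinib. Both had 4 sgRNAs higher and 1 lower. The medians were 1.16 ± 1.69 (SD over 6 sgRNAs) for AATK and 1.07 ± 1.55 for LMTK3, with adjusted p of 0.912 and 0.927, and 0.18 for LMTK2. The LMTK3 sgRNA HGLibB_27691 rose from 102 and 113 to 1410 and 1010 counts (adjusted p = 4.12e-08). In OE19 the 3 medians ran from 0.03 to 0.13 and no sgRNA was called.

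In OE19 the changes were few and large, and they fell on single sgRNAs. Of 303 tested member sgRNAs 9 were higher, against 2.33% of all sgRNAs, and 1 was lower, and the 10 belong to 10 different receptors. The 10 are 3.30% of member sgRNAs, against 2.41% of all sgRNAs and 2.21% of control entries. The share of all genes with calls on a single sgRNA is not given here. The spread over 10 receptors is thus not read as a trait of the members. The 9 target EPHA4, EPHB1, EPHB2, EPHB3, FGFR4, INSR, NTRK3, PTK7 and RET. The largest gain was HGLibB_16291, against EPHB2, a receptor of ephrin-B ligands, with 26.5 and 26.1 counts with vehicle and 4390 and 1200 with lapatinib (102-fold, adjusted p = 0.00337). The FGFR4 sgRNA HGLibA_18449 went from 153 and 174 to 9960 and 3160 counts (40-fold, adjusted p = 0.0125). For INSR, HGLibA_31687 went from 130 and 170 to 8150 and 2560 counts (35.4-fold, adjusted p = 0.0097), and for EPHB3, HGLibA_16316 went from 265 and 261 to 12300 and 3580 (30.0-fold, adjusted p = 0.0284). Both lapatinib libraries were far above both vehicle libraries for these 4 sgRNAs, and replicate 1 was 3.15 to 3.66 times replicate 2.

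The other sgRNAs of these 4 genes stayed near 0 in OE19. The other 5 sgRNAs ran from -0.62 to 0.47 for EPHB2, from -0.22 to 0.50 for FGFR4, from -0.44 to 0.38 for INSR and from 0.04 to 0.71 for EPHB3, and none of these 20 was called. The adjusted p for enrichment by the rank test was 0.592 for EPHB2, 0.945 for FGFR4, 0.921 for INSR and 1.00 for EPHB3. In N87 the EPHB3 sgRNA also rose (log2 fold change 1.60, adjusted p = 3.67e-05), the INSR sgRNA fell by 0.70 (adjusted p = 0.0381), and those of FGFR4 and EPHB2 were not called. The 4 sgRNAs held 34.0% and 14.2% of all member counts in the OE19 lapatinib libraries, against 0.975% to 1.67% in the other 10 libraries. Of the 306 member sgRNAs, 1.31% were more than 20-fold higher in OE19, against 0.335% of all sgRNAs, and 0.0% in N87, against 0.118%. The count of 9 became 17 without lapatinib replicate 1, 31 without lapatinib replicate 2, and 0 without either vehicle replicate. DESeq2 called 11 higher and 1 lower. The shares of all sgRNAs called in these fits are not given here, so these counts do not separate the members from the whole table.

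**Figure D3:**
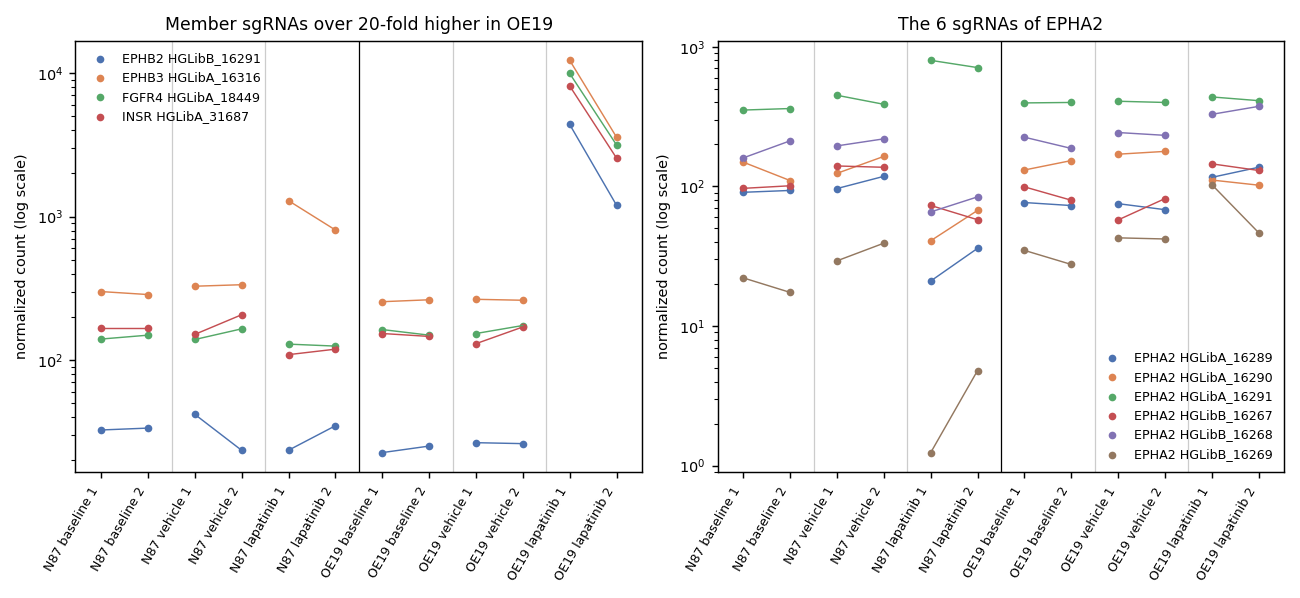
Normalized counts on a log scale in the 12 libraries (lines join the 2 replicates of a condition) of the 4 member sgRNAs more than 20-fold higher with lapatinib in OE19 (left) and of the 6 EPHA2 sgRNAs (right). The 4 sgRNAs on the left reach 1200 to 12300 in OE19 with lapatinib, and on the right 5 of 6 EPHA2 sgRNAs are lower with lapatinib than with vehicle in N87.

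Whether lapatinib acted differently in OE19 and N87 was tested with an interaction term over 8 libraries. At gene level 0 of 51 members were enriched, against 0.0191% of all genes, and 0 were depleted, against 0.0%. At an unadjusted p under 0.05 there were 7 and 3, or 13.7% and 5.88%, against 5.19% and 5.14% of all genes, and DESeq2 p-values gave 0 and 0 after adjustment. The edgeR test on summed counts called 15 members higher in OE19 and 10 lower, against 24.9% and 19.8% of all genes. Of 304 tested member sgRNAs 65 had a higher log2 change in OE19 and 57 a lower one, against 20.7% and 20.5% of all sgRNAs. Together that was 40.1%, against 41.2% of all sgRNAs and 36.2% of control entries. EPHA2, at 2.11, had the largest positive difference and EPHA10, at -1.14 ± 0.93 (SD over 6 sgRNAs), the largest negative one, with 4 sgRNAs called toward higher and 4 toward lower values respectively.

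Without drug, PTK7 was the receptor whose sgRNAs fell in OE19 relative to N87. PTK7 is a membrane protein of the non-canonical Wnt pathway that binds ligands but does not phosphorylate. Its 5 sgRNAs with counts, averaged with the empty sgRNA, gave 165 and 166 counts in the N87 baseline libraries, 155 and 192 with vehicle, 159 and 153 in the OE19 baseline libraries and 104 and 114 with vehicle. Vehicle lay below baseline in both OE19 replicates, and the N87 conditions overlapped. With lapatinib the N87 libraries averaged 178 and 190, and those of OE19 133 and 217.

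By sgRNA, HGLibB_40338 had 246 and 244 counts at baseline and 131 and 132 with vehicle in OE19, and 256 and 253 against 224 and 281 in N87. HGLibB_40340 had 285 and 250 against 147 and 184 in OE19, and 277 and 298 against 261 and 302 in N87. HGLibB_40339 had 171 and 157 against 105 and 123 in OE19, and 178 and 142 against 215 and 215 in N87. HGLibA_47677 had 218 and 219 against 188 and 187 in OE19, and 233 and 253 against 198 and 315 in N87. For these 4 sgRNAs both OE19 vehicle libraries lay below both baseline libraries. HGLibA_47676, the sparsest, went the other way, with 33.9 and 46.9 against 52.3 and 61.3 in OE19, and 44.7 and 48.8 against 34.0 and 40.9 in N87.

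In OE19 the PTK7 median was -0.54 ± 0.54 (SD over 5 sgRNAs), and in N87 it lay at -0.02 ± 0.27. The difference between the lines was -0.68 ± 0.72 (SD over 5 sgRNAs), 4 of 5 sgRNAs were lower in OE19, and the adjusted p for depletion was 0.00971 in the interaction over 8 libraries. PTK7 was thus the 1 of 51 members depleted in this comparison, against 0.191% of all genes, and 0 were enriched, against 0.0383%. At an unadjusted p under 0.05 there were 5 members toward enrichment and 2 toward depletion, or 9.80% and 3.92%, against 5.20% and 5.39% of all genes. By edgeR 0 of 305 member sgRNAs passed in the interaction, where 0.00325% of all sgRNAs were lower and 0.0% higher, and 11 were higher and 7 lower at an unadjusted p under 0.05, or 3.61% and 2.3% against 2.38% and 3.44% of all sgRNAs. Within OE19 the adjusted p of PTK7 was 0.119 by the rank test. There HGLibB_40338 passed on its own (log2 fold change -0.91, adjusted p = 0.0366), and the summed counts gave -0.55 with an adjusted p of 0.00424. The call between the lines was lost with summed counts (-0.60, adjusted p = 0.195), which called 0 members in either direction against 0.00478% and 0.0478% of all genes. It was also lost without N87 baseline replicate 1 (0.0514), N87 vehicle replicate 2 (0.151), OE19 baseline replicate 1 (0.0693) or OE19 vehicle replicate 1 (0.156). Over the 8 libraries left out in turn the median ran from -0.83 to -0.51. PTK7 lies at 6:43044045-43129457 on GRCh37, plus strand.

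**Figure D4:**
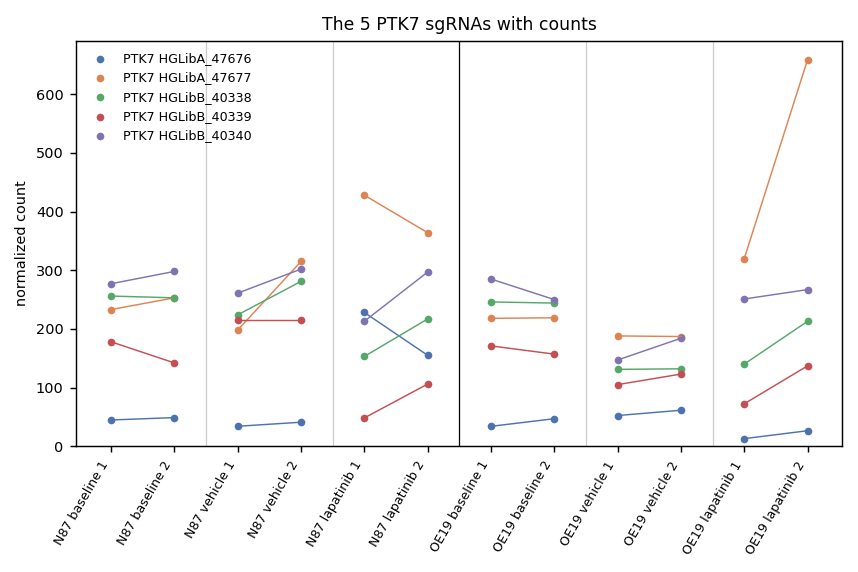
Normalized counts of the 5 PTK7 sgRNAs with counts (colours) in the 12 libraries, with lines joining the 2 replicates of a condition and a black line between N87 and OE19. HGLibB_40338, HGLibB_40339, HGLibB_40340 and HGLibA_47677 are lower with vehicle than at baseline in OE19, and HGLibA_47676 is not.

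The other 50 receptors had small drug-free changes. In N87, 0 of 51 members were enriched, against 0.0574% of all genes, and 0 depleted, against 2.34%. In OE19, 0 were enriched, against 0.0%, and 0 depleted, against 1.53%. At an unadjusted p under 0.05 from the rank test, 1 member leaned toward enrichment and 0 toward depletion in N87, or 1.96% and 0.0% against 5.11% and 7.07% of all genes. In OE19 there were 6 and 1, or 11.8% and 1.96%, against 4.99% and 6.99% of all genes. DESeq2 p-values gave 0 members in each direction in both lines, and the edgeR test on summed counts called 0 in N87, against 0.0287% and 1.49% of all genes, and called EPHA10 higher (0.28, adjusted p = 0.0310) and PTK7 lower in OE19, against 0.497% and 5.95% of all genes. Of 305 tested member sgRNAs, 0 were called in N87 (0.0% of all higher and 0.0399% lower), and in OE19 the PTK7 sgRNA above was lower, against 0.893%, and 0 were higher, against 0.0114%, or 0.904% either way. At an unadjusted p under 0.05, 10 were higher and 0 lower in N87, or 3.28% and 0.0% against 2.63% and 5.09% of all sgRNAs. In OE19 24 were higher and 9 lower, or 7.87% and 2.95% against 4.92% and 7.89%. DESeq2 called 0 member sgRNAs in N87 and 1 lower in OE19. For the fits below without a library, the shares of all sgRNAs are not given here. Without OE19 vehicle replicate 2, 46 were higher and 31 lower, without replicate 1, 11 and 3, and without N87 vehicle replicate 1, 6 and 2. The medians ran from -0.19 to 0.22 in N87 and, for the 50 without PTK7, from -0.20 to 0.22 in OE19. The 5th and 95th percentiles of all genes were -0.38 and 0.18 in N87 and -0.45 and 0.24 in OE19.

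In N87 the lowest drug-free medians were those of LTK (-0.19 ± 0.28, SD over 6 sgRNAs), TEK (-0.18 ± 0.25), AATK (-0.14 ± 0.22) and FGFR1 (-0.11 ± 0.13). The highest were ROR1 (0.14 ± 0.20), RYK (0.16 ± 0.15), TYRO3 (0.20 ± 0.27) and EPHA2 (0.22 ± 0.25). EPHA2 had all 6 sgRNAs positive in N87 and an adjusted p of 0.599 for enrichment. In OE19 the lowest after PTK7 were FLT3 (-0.20 ± 0.20), EPHA3 (-0.14 ± 0.25) and TYRO3 (-0.10 ± 0.34), and the highest were EPHA10 (0.19 ± 0.23), LTK (0.20 ± 0.34), FGFR3 (0.21 ± 0.14) and KIT (0.22 ± 0.17). LTK and TYRO3 appear at both ends, but their differences between the lines, 0.31 ± 0.31 and -0.16 ± 0.48 (SD over 6 sgRNAs), had adjusted p of 1.00 in the interaction test. Without OE19 vehicle replicate 1 the OE19 median of TYRO3 was 0.12, and without N87 baseline replicate 1 the N87 median of LTK was -0.01. Each of these log2 changes was at most 0.22 in size, and the bypass candidates MET, IGF1R, FGFR2 and AXL were not among them.

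**Figure D5:**
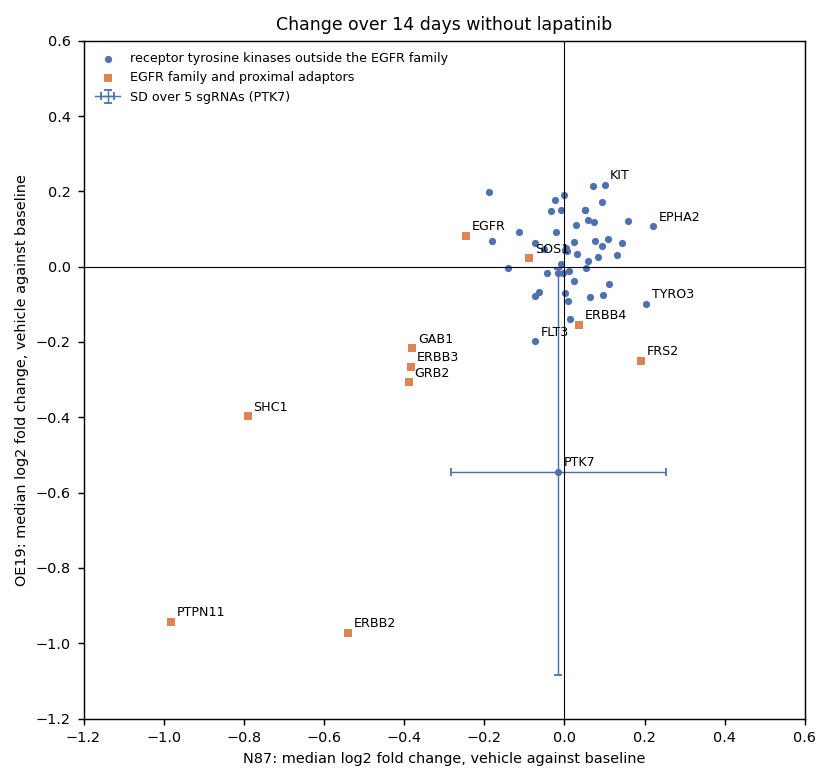
Median log2 fold change over sgRNAs, vehicle against baseline, in N87 (horizontal) and OE19 (vertical) for the 51 receptors (blue circles) and for the EGFR family and proximal adaptors (orange squares), with the SD over 5 sgRNAs drawn for PTK7. The receptors sit between -0.20 and 0.22 on both axes except PTK7 at -0.54 in OE19, and PTPN11, ERBB2 and SHC1 lie further out.

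The genes around these receptors were read in the same way. The lists hold 61 ligands, 17 coreceptors and ligand-processing genes, 32 proximal adaptors and effectors and the 4 EGFR family genes, and none of their genes was called with lapatinib in either line or in the interaction. HGF, the MET ligand, had medians of 0.54 ± 1.85 (SD over 6 sgRNAs) in N87 and 0.21 ± 0.75 in OE19, and GAS6, the ligand of AXL, TYRO3 and MERTK, had 0.38 ± 0.95 and -0.17 ± 0.31. At an unadjusted p under 0.05 from the rank test, 2 and 3 ligands leaned toward enrichment and depletion in N87 and 2 and 1 in OE19. For the adaptors these counts were 3 and 2 in N87 and 2 and 2 in OE19, and for the coreceptor genes 0 and 1 and 1 and 1. Of all genes, 5.08% and 5.18% were under this p in N87 and 5.47% and 5.37% in OE19. ERBB2, the gene of HER2, had 54.9 and 64.3 counts per sgRNA with vehicle against 150 and 109 under lapatinib in OE19, with a median of 0.95 ± 0.79, all 6 sgRNAs positive and an adjusted p of 0.863. In N87 it had 48.7 and 37 with vehicle and 47.2 and 48.2 with lapatinib. EGFR, ERBB3 and ERBB4 had lapatinib medians of 0.10, 0.94 and -0.99 in N87 and 0.23, -0.11 and -0.18 in OE19.

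Without drug, 2 of 32 adaptors and effectors were depleted in N87 and 1 of 32 in OE19, against 2.34% and 1.53% of all genes. In either line, 0 of 61 ligands and 0 of 17 coreceptor genes were called. Of the adaptors, 2 leaned toward enrichment and 7 toward depletion in N87 at an unadjusted p under 0.05 (rank test), and 0 and 2 in OE19. For the EGFR family these counts were 0 and 2 in N87 and 0 and 1 in OE19. Ligands had 3 and 0 in N87 and 1 and 0 in OE19, and coreceptor genes 1 and 0 and 0 and 0. Of all genes, 5.11% and 7.07% were under this p in N87 and 4.99% and 6.99% in OE19. PTPN11, the SHP2 phosphatase that many receptors use to reach Ras, averaged 130 and 122 counts at baseline and 91.1 and 48.8 with vehicle in N87, and 127 and 151 against 77.3 and 90.4 in OE19. Its medians were -0.98 ± 0.24 (SD over 6 sgRNAs, adjusted p = 0.0124) in N87 and -0.94 ± 0.46 (adjusted p = 0.0146) in OE19, with all 6 sgRNAs negative in both. The N87 call was lost without N87 vehicle replicate 2 (-0.55, adjusted p = 0.676) and with summed counts (0.0754), and the OE19 call without OE19 vehicle replicate 1 (0.189) or 2 (0.0639) and with control guide factors (0.189). SHC1 averaged 149 and 148 at baseline and 99.6 and 84.3 with vehicle in N87, with a median of -0.79 ± 0.24 (adjusted p = 7.73e-04), and had -0.40 ± 0.43 in OE19 (adjusted p = 1.00). Without N87 baseline replicate 2 the SHC1 adjusted p was 0.167.

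ERBB2 averaged 105 and 103 counts at baseline and 54.9 and 64.3 with vehicle in OE19. Its median of -0.97 ± 0.69 (SD over 6 sgRNAs) was depleted by the rank test (adjusted p = 0.0131), a call lost without OE19 vehicle replicate 1. The gene is amplified in both lines, and whether its copy number bears on these counts was not tested. In N87 ERBB2 had 67.6 and 53.8 at baseline and 48.7 and 37 with vehicle, a median of -0.54 ± 0.34, all 6 sgRNAs negative and an adjusted p of 0.573. The adaptors GRB2, GAB1, SOS1 and FRS2 had N87 medians of -0.39, -0.38, -0.09 and 0.19 and OE19 medians of -0.31, -0.22, 0.02 and -0.25, and none passed the rank test. GRB2 passed with summed counts (adjusted p = 0.0466 in N87 and 0.0159 in OE19). With ranks below 0.25 in place of 0.05, GRB2, GAB1, EGFR and ERBB2 passed in N87 (0.0112, 0.025, 0.011 and 0.00855). EGFR, ERBB3 and ERBB4 had N87 medians of -0.25, -0.38 and 0.04 and OE19 medians of 0.08, -0.27 and -0.15, and none passed the rank test at 0.05. Without N87 baseline replicate 2, ERBB3 was depleted in N87 (-0.60, adjusted p = 0.0148). Thus 4 calls fell on PTPN11, SHC1 and ERBB2 within a line and none on the 51 receptors. Whether the lists differ from the receptors was not tested.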

How the data were processed

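The authors amplified and sequenced the sgRNA cassettes of 12 libraries and deposited raw read counts per sgRNA, with no normalization. The submitters' processing notes name FastQC 0.11.5, Bowtie2 2.3.2 and MAGeCK 0.5.6, and reads with fewer than 2 mismatches were assigned to sgRNAs. Reads carry no molecular identifiers. The 2 replicates of a condition come from separate infections. The sgRNA tests use the spread between them, with information on spread shared over all sgRNAs. The rank test of a gene compares the ranks of its sgRNAs with independent uniform ranks. Its p thus measures agreement among sgRNAs and not the spread between replicates.

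From the deposited counts, each comparison within a line used its 4 libraries and each comparison between lines 8. sgRNAs with at least 40 counts over 4 libraries, or 80 over 8, were tested with edgeR 4.0.16 (quasi-likelihood test, TMM factors; limma 3.58.1, R 4.3.3). For gene calls, one-sided p-values were ranked over all sgRNAs and the ranks below 0.05 combined by robust rank aggregation for genes with at least 2 tested sgRNAs (Python 3.11.15, numpy 2.4.6, pandas 2.3.3, scipy 1.17.1), with Benjamini-Hochberg adjustment over all genes at 0.05. Normalized counts were divided by median-of-ratios factors over 12 libraries, and folds of normalized counts used a pseudocount of 1. The scripts were tested on simulated data in which all sgRNAs of a changed gene had the same fold. In the lapatinib comparisons here the sgRNAs of a gene shared little variance, so the simulation does not show how the gene test performs on these data. Gene positions come from GENCODE on GRCh37, which the counts did not use. Figures were drawn with matplotlib 3.10.9.

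The members, the 17 receptor groups and the 4 other gene lists were chosen with earlier results of these data known. Named were members called in any comparison, the 4 highest and 4 lowest medians of each comparison within a line, MET, IGF1R, FGFR2, AXL and EPHA2, the 3 largest and 3 smallest sgRNA changes with lapatinib in each line, and chosen adaptors and ligands. Other members, EPHB3 among them, were named to complete their receptor group or after their values were seen.

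The alternatives were median-of-ratios factors, total counts only, control guide factors, no filter on low counts, DESeq2 1.42.0 p-values, the replicate number as a block, ranks below 0.25, summed counts per gene, pseudocounts of 0.5 and 5, and each library left out in turn.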

Additional observations from a re-analysis of the deposited data

Results flagged for a closer look

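The drug-free change of PTK7 differed between the lines by the interaction test, at -0.68 on the log2 scale (median over 5 sgRNAs, OE19 minus N87, adjusted p = 0.00971 by robust rank aggregation of edgeR p-values). That call was lost with summed counts (adjusted p = 0.195) and in 4 of the 8 fits that left out a library (adjusted p from 0.0514 to 0.156). The effect of lapatinib on single member sgRNAs also differed between the lines by the interaction test, with 65 sgRNAs higher and 57 lower in OE19 than in N87 (edgeR), where the lapatinib doses differ as well. These are 21.4% and 18.8% of member sgRNAs, against 20.7% and 20.5% of all sgRNAs, so the members were near the background, and 36.2% of control entries were called either way.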

How the results depend on the processing

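Over all alternatives to values of single genes and sgRNAs, 744 of 820 kept their direction and their side of the threshold. Counts of called members moved most with summed counts per gene, which called 18 members higher and 16 lower with lapatinib in N87, 1 higher and 1 lower in OE19 without drug, 15 and 10 in the lapatinib interaction, and 0 in the drug-free interaction, where PTK7 was lost. With total counts only, 63 member sgRNAs were higher with lapatinib in N87 and 5 in OE19. With control guide factors 3 were lower in OE19 without drug. Whether the replicate numbers pair the libraries was not settled. Each line had 2 separate infections, and the labels give a replicate number without tying it to an infection. The deviations of same-numbered libraries correlated at r = 0.0607 and 0.237 (N87) and at r = 0.0344 and 0.0749 (OE19). With a replicate block, 5 member sgRNAs were higher and 3 lower in OE19 without drug, PTK7 kept its call between lines (adjusted p = 0.0114), and no other member gene was called.

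With libraries left out in turn, member sgRNAs with lapatinib ran from 76 to 96 higher and 53 to 116 lower in N87 and from 0 to 31 higher and 0 to 9 lower in OE19. Without drug they ran from 0 to 6 higher and 0 to 2 lower in N87 and from 0 to 46 higher and 0 to 31 lower in OE19, and the members depleted between lines from 0 to 1. A group left with 1 library was assumed to vary like the others. The shares of all sgRNAs called without a library, with other scalings, with the block or with DESeq2 are not given here. The counts of member sgRNAs in those fits thus do not separate the members from the whole table.

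The median of 14 of 51 members in N87 and 26 in OE19 turned sign with total counts only under lapatinib, and of 8 and 6 with control guide factors. Without drug 7 and 2 turned with total counts and 21 and 29 with control guide factors. Of the genes named by the rule, none of those that turned had passed the rank test. Among these genes, summed counts with lapatinib, on their own scale, gave RET 0.04, RYK 0.27 and AXL -0.13 in N87 and MET -0.15 in OE19. Total counts gave AXL -0.28 in N87 and MET -0.42 and FGFR2 -0.13 in OE19, and control guide factors AXL -0.03 in N87. Without drug, control guide factors gave ERBB4 -0.05 and GAS6 -0.06 in N87 and EGFR -0.10, HGF -0.16, GAS6 -0.17 and SOS1 -0.17 in OE19. The replicate block gave ERBB4 -0.02 in N87 and GAS6 -0.04 and SOS1 -0.02 in OE19, summed counts GAS6 -0.10 and SOS1 -0.03, and total counts GAS6 -0.00. With libraries left out, AXL ran from -0.01 to 0.43 in N87 and from -0.34 to 0.05 in OE19 with lapatinib, and MET from -0.15 to 0.24 in OE19. Without drug, RYK ran from -0.01 to 0.20, ERBB4 from -0.02 to 0.11, HGF from -0.02 to 0.26 and GAS6 from -0.03 to 0.10 in N87. In OE19 TYRO3 ran from -0.21 to 0.12, HGF from -0.02 to 0.14, GAS6 from -0.17 to 0.04 and SOS1 from -0.33 to 0.08. The causes were not tested. Each change rests on 2 libraries per group and a median of 67.5 to 270.5 counts per member sgRNA.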
